A study of Mus musculus with 2197 samples.

Results

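Cells sorted as Pdx1-GFP+ from mouse embryos at embryonic day 9.5 (E9.5) made up 113 of the 2195 single cells profiled by Smart-seq2 in the study. They were taken as all cells labelled Pdx1-GFP+ and E9.5, in 3 sets of 57, 25 and 31 cells, a set being the first of the 2 numbers that end a cell's title. The comparison group was the 42 Pdx1-GFP+ cells of E10.5, in sets 3 and 4 of 25 and 17 cells. Both groups came from a transgenic mouse line in which green fluorescent protein reports Pdx1, and the tissue is labelled pancreas. Strain, number of embryos, the gate of the sort and what a set stands for are not given in the sources used here. The 27 Pdx1-GFPhigh cells of E10.5 and the 60 Pdx1-GFP+ cells of E11.5, in 2 sets each, entered only the estimate of the spread and the alternatives.

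Pdx1 is the homeodomain factor of the posterior foregut endoderm from which the dorsal and ventral pancreatic buds and the adjoining duodenum and stomach form. Bud progenitors carry Sox9 and Ptf1a, transcription factors of pancreatic progenitors, while Mnx1 marks the early dorsal endoderm and Hhex the ventral one. Some progenitors switch on Neurog3, the factor that starts endocrine differentiation, and the first hormone cells of the mouse pancreas make glucagon, the product of Gcg.

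Each E9.5 cell had between 240959 and 1148130 gene counts (median 449481) and a median of 7946 genes, against a median of 657058 counts and 7882.5 genes at E10.5. Levels are given as CPM, counts per 1000000 of the gene counts of a cell or of the summed cells of a set, without division by gene length, so levels are compared within a gene only. A cell was counted for a gene at 100 CPM or more. Epcam, an adhesion protein of epithelia, reached that level in 108 of the 113 cells, Krt8 in 111 and the endoderm factor Foxa2 in 85. No E9.5 cell reached 3 markers of endothelium, leukocytes, erythroid cells, liver, mesenchyme or notochord, and Kdr, Ptprc and T had no count. Of the neural and glial list 1 E9.5 cell reached 3 markers, and its summed level was 0.0389%, 0.0305% and 0.0358% of counts in the E9.5 sets against 0.0155% and 0.0184% at E10.5. The summed level of the 8 mesenchyme markers was 0.0130%, 0.00265% and 0.00702% of counts in sets 1, 2 and 3 of E9.5, against 0.00563% and 0.0104% at E10.5, and the part of either list in any result was not tested.

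Set 1 differed from sets 2 and 3 of E9.5 in part of the genes. Of 16670 tested genes, counting those of 20 CPM or more in the higher sets, set 1 lay below 50% of every other Pdx1-GFP set in 19 and above 2 times every other set in 44. Other sets were counted in pairs only, where both sets had to lie below or above every set outside the pair. Their counts therefore cannot be set against those of set 1. The 2 Pdx1-GFPhigh sets lay together below in 14 and above in 25 genes. The 2 E11.5 sets lay below in 1 and above in 26, and the 2 Pdx1-GFP+ E10.5 sets below in 4 and above in 2. Sets 2 and 3 of E9.5 lay together above in 8 and below in 22 genes, the latter including Lamp1, a lysosomal membrane protein found in all cells, at 46.4 and 46.4 CPM against 454 CPM in set 1 and 403 and 421 CPM at E10.5. These genes separate sets rather than days, so comparisons of the days below give the value of each set.

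Endocrine genes divided the E9.5 cells. Of the 113 cells, 17 had Gcg, a further 33 had Neurog3 without Gcg, 3 had only Isl1 or Neurod1, factors of endocrine differentiation, and 60 had none of these 4 genes. Cells without any of the 4 made up 64.9%, 52% and 32.3% of sets 1, 2 and 3, and 36% and 35.3% of sets 3 and 4 of E10.5. The Neurog3 class held 26.3%, 24% and 38.7% of the E9.5 sets and 16% and 11.8% of the E10.5 sets. Every E9.5 set thus held a larger share of Neurog3 cells than either E10.5 set. These classes are ranges of a level and were chosen after the data were seen. From 50 to under 200 CPM lay 12 cells for Neurog3, 9 for Neurod1 and 4 each for Isl1 and Gcg.

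**Figure D1:**
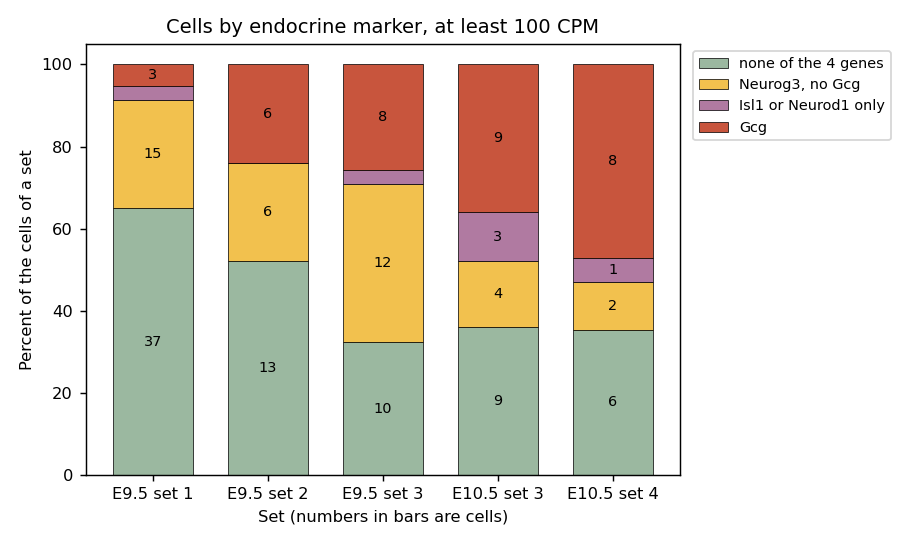
Percent of the cells of each set (y axis) in 4 classes by Gcg, Neurog3, Isl1 and Neurod1 at 100 CPM or more, with cell numbers in the bars. The Gcg class held 3, 6 and 8 cells in the E9.5 sets and 9 and 8 in the E10.5 sets.

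Nepn was the marker that reached 100 CPM in the most E9.5 cells among the 6 chosen for this sort. Nepn encodes nephrocan, a leucine-rich proteoglycan of the foregut and midgut endoderm (chr10:52388972-52404625, mm10). Its share was 73.7%, 68% and 61.3% of cells in the E9.5 sets and 48% and 41.2% in the E10.5 sets. The mean share was 67.7% ± 6.20 (SD, n = 3 sets) against 44.6% ± 4.82 (SD, n = 2 sets), a difference of 23.1 percentage points (exact two-sided permutation test over sets, p = 0.2, adjusted p = 0.333 over the 5 genes with a value). A p of 0.2 is the smallest that 3 sets against 2 can give, so no share could pass 0.05. Summed over the cells of a set, Nepn stood at 2422, 3973 and 3874 CPM at E9.5 and at 1922 and 1794 CPM at E10.5, without overlap of the days. In the cells without endocrine markers the days overlapped, at 3537, 7087 and 9699 CPM against 4720 and 4879 CPM, and Nepn reached 100 CPM in 56 of 60 E9.5 and 15 of 15 E10.5 cells. With the Pdx1-GFPhigh sets counted into E10.5 the difference in share turned to -3.07 percentage points. In a sum over a set, fewer cells and less RNA per cell cannot be told apart.

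Pdx1 itself (chr5:147269959-147275848) reached 100 CPM in 53 of the 113 sorted cells, and 85 had at least 1 count. Its share was 49.1%, 52% and 38.7% of the E9.5 sets and 36% and 29.4% of the E10.5 sets, a difference of 13.9 percentage points (exact permutation p = 0.2, adjusted p = 0.333, n = 3 and 2 sets). With the Pdx1-GFPhigh sets counted into E10.5 it turned to -11.2 points. The threshold falls inside the range of Pdx1, with 30 E9.5 cells from 50 to under 200 CPM. All 53 Pdx1 cells also had Nepn, 49 had Sox9, and 1 each had Isl1 and Gcg. Sox9 (chr11:112782224-112787760) had shares of 59.6%, 52% and 32.3% at E9.5 and 40% and 35.3% at E10.5, which overlap (exact permutation p = 0.6, n = 3 and 2 sets), and the difference turned from 10.3 to -14.6 points with the Pdx1-GFPhigh sets. No cell of either day had both Sox9 and Isl1.

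**Figure D2:**
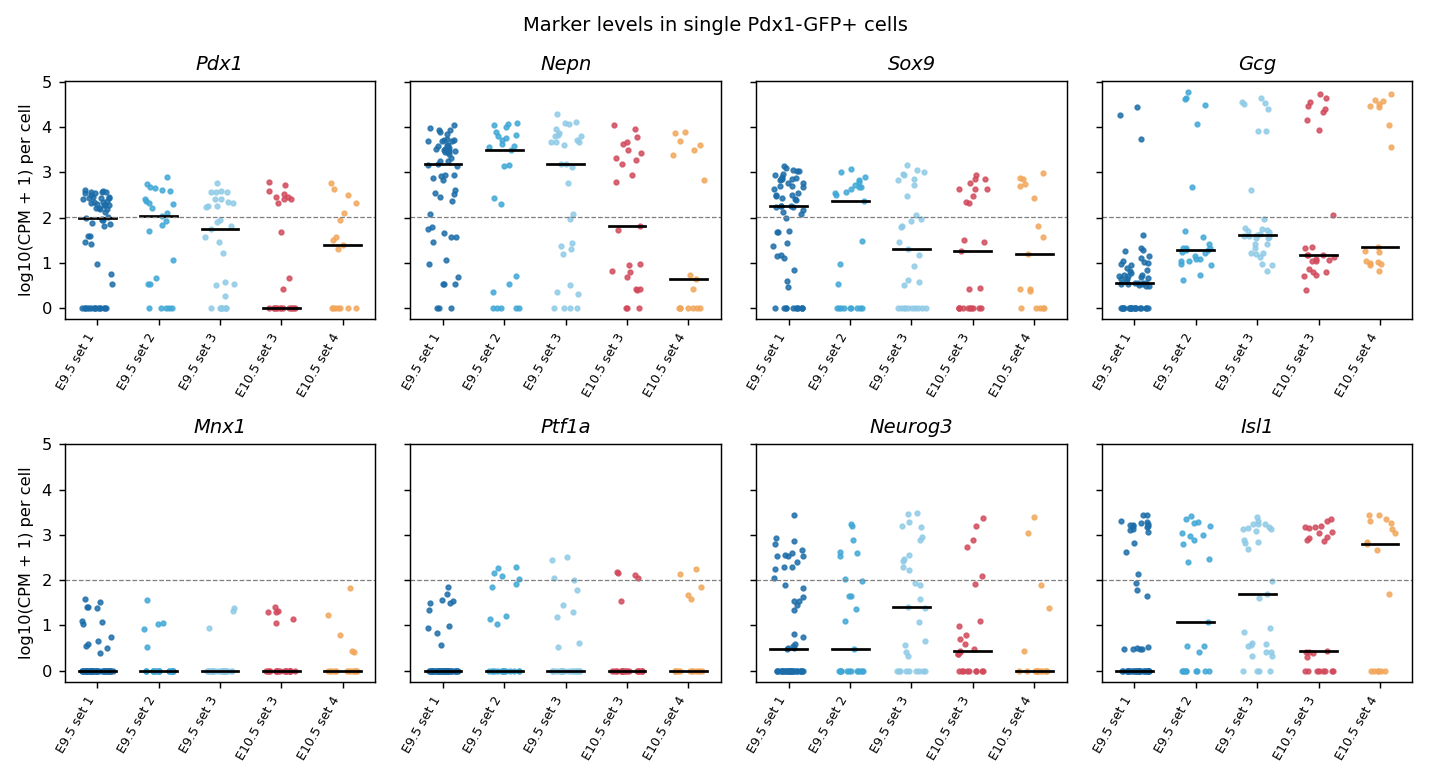
Level of 8 genes in each Pdx1-GFP+ cell, as log10(CPM + 1), by set; the bar is the median of the set and the dashed line 100 CPM. Gcg cells of E9.5 lay at or above 413 CPM, apart from the other 96 cells at or below 90.4 CPM.

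The dorsal and ventral buds could not be told apart with Mnx1 and Hhex. Mnx1 (chr5:29473034-29478470) reached 100 CPM in 0 of 113 E9.5 cells (3 counts of the total, the limit taken for a count of 0, are 2.65%, and the exact 95% upper bound is 3.21%), and its highest cell had 38.2 CPM. Hhex was also below 100 CPM in every E9.5 cell, with a highest value of 70.7 CPM and counts in 8 cells. Of the other genes of the ventral bud and bile duct list, Sox17 reached 100 CPM in no cell, Tbx3 in 1, Onecut1 in 12, Onecut2 in 36 and Prox1 in 74. Onecut1 and Prox1 also stand on the list of pancreatic progenitor genes. In 6 E9.5 cells 3 or more of the 7 genes of the ventral list reached 100 CPM. No E9.5 cell was assigned to a bud.

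Ptf1a was confined to sets 2 and 3 at this threshold. Ptf1a (chr2:19445663-19447501) reached 100 CPM in 0 of 57, 5 of 25 and 4 of 31 cells of the E9.5 sets and in 4 of 25 and 2 of 17 cells of the E10.5 sets. The threshold falls inside its range, with 11 E9.5 cells from 50 to under 200 CPM, and the highest cell of set 1 had 69.6 CPM. All 9 Ptf1a cells of E9.5 also had Nepn, Pdx1 and Sox9, and 5 of them had Cpa1, a carboxypeptidase made by multipotent tip progenitors and acinar cells. The share of Ptf1a cells differed by -2.91 percentage points between the days (exact permutation p = 1, n = 3 and 2 sets), and by 2.57 points in the opposite direction without set 1.

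Sfrp5, a secreted Wnt-binding protein of the early foregut, showed the converse split among sets. It was summed to 601, 133 and 152 CPM in sets 1, 2 and 3, against 35.4 and 13.3 CPM at E10.5. All 3 E9.5 sets lay above both E10.5 sets, set 1 by the widest margin. Sfrp5 reached 100 CPM in 55 E9.5 cells and 2 E10.5 cells. Of the 14 E9.5 cells with Cpa1, 7 also had Sfrp5.

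**Figure D3:**
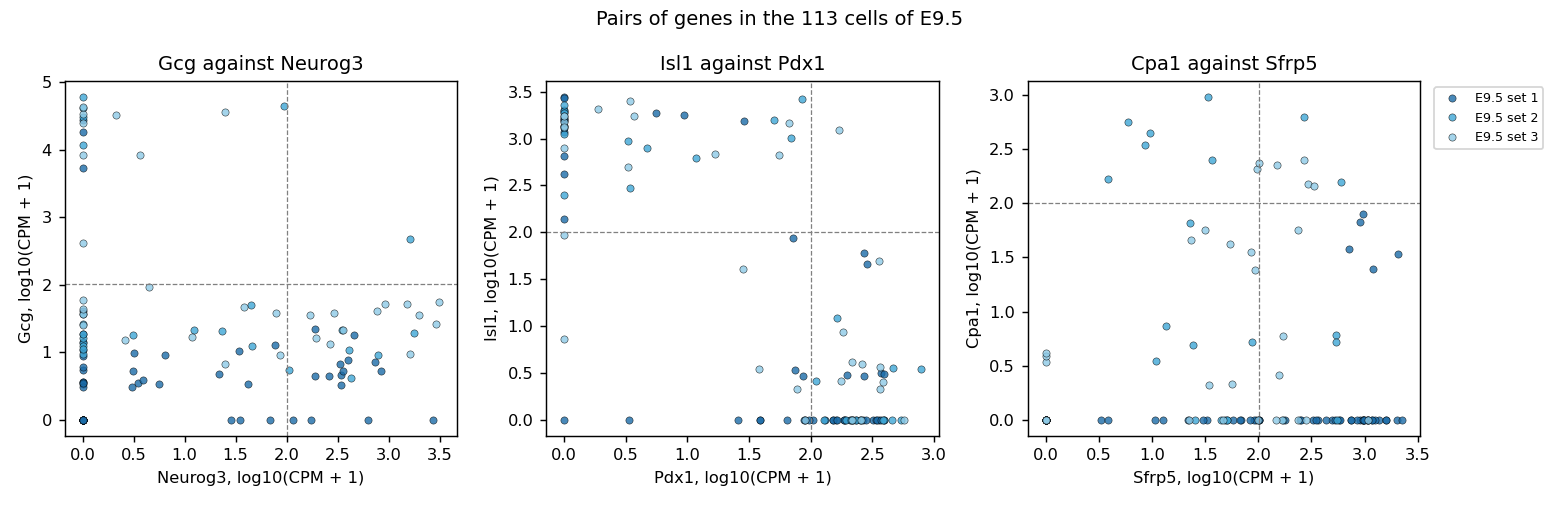
Levels of 2 genes in each E9.5 cell, as log10(CPM + 1), coloured by set, with dashed lines at 100 CPM. Only 1 cell had both Neurog3 and Gcg and only 1 both Pdx1 and Isl1, while 7 had both Sfrp5 and Cpa1.

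The Neurog3 cells spanned a range from progenitor to endocrine genes. Counting the Gcg cell too, 34 E9.5 cells had Neurog3 (chr10:62133090-62134763). Of these, 28 had Neurod1, 24 had Isl1 and 19 had Pax4, an early endocrine repressor. Progenitor genes were still present in part, with Nepn in 20 of the 34 cells, Sox9 in 6 and Pdx1 in 5. At E10.5, 2 of 7 Neurog3 cells had Isl1. The test of that difference between days was not made, because the E10.5 sets held only 5 and 2 such cells.

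Glucagon cells were already distinct at E9.5. The 17 cells with Gcg (chr2:62474530-62483650) had from 413 to 59917 CPM, with a median of 27786 CPM. Low Gcg counts reached most other cells, since only 20 of 113 cells had none, but the highest cell outside the class had 90.4 CPM. All 17 had Isl1 and Slc38a5, an amino acid transporter of alpha cells, 16 had the peptide hormone gene Pyy, and 9 had ghrelin (Ghrl). Nepn was at 100 CPM or more in 2 of the 17 and Pdx1 in 1.

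The share of Gcg cells was 5.26%, 24% and 25.8% in the E9.5 sets and 36% and 47.1% in the E10.5 sets. Every E9.5 set lay below both E10.5 sets, by 23.2 percentage points in the mean (18.4% ± 11.4 SD, n = 3, against 41.5% ± 7.82 SD, n = 2; exact permutation p = 0.2, adjusted p = 0.333). The Pdx1-GFPhigh sets of E10.5 had 0 of 11 and 2 of 16 cells in the Gcg class, a smaller share than in sets 2 and 3 of E9.5, and with them counted into E10.5 the difference was -5.53 points. Over cells, 17 of 113 gave 15.04% (95% exact Clopper-Pearson interval 9.01 to 22.99%) and 17 of 42 gave 40.5% (25.6 to 56.7%), intervals that cover counting error only. Within the Gcg class the level of Gcg was 17830, 34680 and 23723 CPM in the E9.5 sets and 25954 and 29471 CPM in the E10.5 sets, which overlap. In the same cells Cpe, an enzyme of hormone processing, stood at 1610, 1090 and 1485 CPM at E9.5 and 2002 and 2824 CPM at E10.5. Ttr, a carrier protein of alpha cells, stood at 1157, 1059 and 1342 CPM and at 2250 and 2186 CPM. Both genes were lower in every E9.5 set than in either E10.5 set. Set 1 held only 3 of these cells.

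Clustering of the 113 cells by all genes gave 8 groups, described here without a test because the genes that define them were used to form them. Cluster 4 (16 cells, all with Gcg) was alpha cell-like, with 11 of 12 alpha markers at 2 times the mean of the other cells or more. Cluster 7 (11 cells) was endocrine progenitor-like, with Neurog3 at a mean of 1682 CPM and 11 of 14 markers raised in the same sense. Cluster 1 (20 cells) was endocrine-like by 10 of 17 general endocrine markers, and was led by the Notch ligand gene Dll3 and by Ghrl, which held a mean of 1801 CPM there. The highest cell had 21614 CPM of Ghrl, all 8 cells of that cluster at 100 CPM or more came from set 1, and its 8 cells of sets 2 and 3 lay at or below 19.3 CPM. Each of these 3 clusters held cells of all 3 sets.

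Cluster 6 (11 cells; 4, 3 and 4 from sets 1, 2 and 3) was gut-like. Among its leading genes was Cdx2, the factor of the intestine, at a mean of 109 CPM against 2.67 CPM in the other cells, although a single cell held 948 CPM of Cdx2 and no other reached 100 CPM. The signal Ihh reached 100 CPM in 5 of its 11 cells, and 6 of 12 gut and stomach markers were at 2 times the other cells or more. All 11 cells had Nepn and Sfrp5, 8 had Pdx1, and none had Ptf1a, Cpa1, Gcg, Neurog3, Neurod1 or Isl1 at 100 CPM. Of the general endocrine and alpha cell genes, Rfx6 reached 100 CPM in 8 of the 11 cells, Cpe in 6, Ttr in 4, Tmem27 in 2 and Slc38a5 in 1.

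The other 4 clusters were left unnamed. Clusters 5 (13 cells) and 8 (7 cells) held all 9 Ptf1a cells, with Ptf1a means of 85.8 and 108 CPM and Cpa1 means of 211 and 275 CPM, and cluster 8 was led by genes of mitosis such as Ube2c and Ccnb1. Clusters 2 (18 cells) and 3 (17 cells) came from set 1 alone, the former led by genes of dividing cells such as Mybl2, Tpx2 and Rrm2, the latter with Sfrp5 at a mean of 1037 CPM and the Notch target Hes1 at 211 CPM. Clusters of set 1 alone held 35 cells here and 30 cells at a resolution of 1.4. At a resolution of 0.6 no cluster came from set 1 alone, and the same held without 598 genes that separated set 1 from sets 2 and 3 among cells with an endocrine marker, which was tried after seeing the data.

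**Figure D4:**
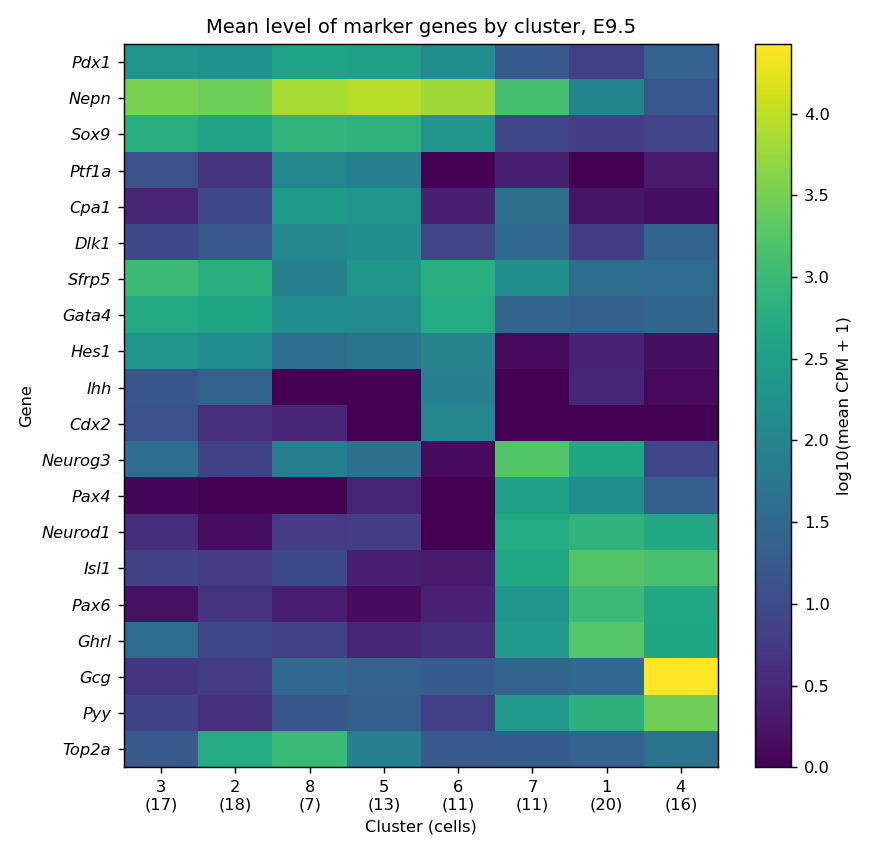
Mean level of 20 genes in the 8 clusters of E9.5 cells, as log10(mean CPM + 1) by colour, with cells per cluster in brackets. Gcg stands out in cluster 4, Neurog3 in cluster 7, Ihh in cluster 6, and Ptf1a and Cpa1 in clusters 5 and 8.

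Dividing cells were found mainly outside the endocrine classes. Top2a or Mki67, genes of dividing cells, reached 100 CPM in 28 of the 60 cells without endocrine markers, in 4 of 33 cells of the Neurog3 class and in 2 of 17 Gcg cells. In cells without endocrine markers the share was 45.9%, 46.2% and 50% in the E9.5 sets and 44.4% and 50% in the E10.5 sets.

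Across all genes, the cells of a set summed, no gene passed an adjusted p of 0.05 between E9.5 and E10.5 with edgeR's quasi-likelihood test (0 of 16670 genes, 0%), and 1374 genes (8.24%) had an unadjusted p under 0.05. DESeq2 called 377 of 15211 genes (2.48%), of which 273 were higher (1.79%) and 104 lower (0.684%) at E9.5. The limma test called 0 of 15595 genes, with 1575 (10.1%) at an unadjusted p under 0.05. In 13.46% of tested genes all E9.5 sets lay above both E10.5 sets, and in 13.98% all lay below. Without set 1 edgeR called 5 genes (0.0306%), all lower in sets 2 and 3 of E9.5: Lamp1, Rac1, Ptov1, Nsmce4a and the pseudogene Gm13456. Lamp1, as given above, was not low in set 1. Gm13456 stood in the Gcg class at 34.5, 0.84 and 0.60 CPM in the E9.5 sets and 28.7 and 28.8 CPM at E10.5. These calls therefore do not hold for E9.5 as a whole.

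Against this background the lists differed in direction. Of 10 early foregut genes 9 had a positive log2 fold change (E9.5 over E10.5), 5 lay above both E10.5 sets (50% against 13.46% of all genes) and 1 below, with a median of 0.82 beside 0.03 for all genes. The summed level of this list was 0.488%, 0.555% and 0.534% of counts in the E9.5 sets, 0.295% and 0.276% in the Pdx1-GFP+ E10.5 sets and 0.870% and 0.750% in the Pdx1-GFPhigh sets, which lay above E9.5. The list included Nepn (0.90 ± 0.20, SE, edgeR adjusted p = 0.469), Sfrp5 (3.63 ± 0.78, adjusted p = 0.469) and Cldn6, a tight junction protein of embryonic epithelia (0.73 ± 0.16, adjusted p = 0.469). None of the 3 passed with edgeR, and all passed with DESeq2 (adjusted p = 0.0139, 1.8e-05 and 0.0141). Of 10 epithelial genes 9 were positive and 5 lay above both E10.5 sets, among them Krt19 at 180, 79.7 and 109 CPM against 44.9 and 16.3 CPM.

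All 12 alpha cell genes had a negative log2 fold change, with a median of -1.01, and 8 lay below both E10.5 sets, where 13.98% of all genes did. Of 17 general endocrine genes 16 were negative, with a median of -0.71, and 8 lay below and 1 above. Pyy stood at 355, 588 and 947 CPM at E9.5 and 1869 and 2730 CPM at E10.5, and Cpe at 251, 419 and 568 CPM and 1000 and 1432 CPM. None of these genes passed with edgeR or DESeq2. The share of Gcg cells moved with both lists. In the cells with an endocrine marker 10 of 12 alpha cell genes were negative (median -0.73) and 10 of 17 general endocrine genes (median -0.70), beside a median of 0.03 for all genes. The mix of classes differed between the days among these cells too. The Gcg class held 3, 6 and 8 of them in the E9.5 sets and 9 and 8 in the E10.5 sets. The Neurog3 class held 15, 6 and 12 against 4 and 2. Gcg, Isl1 and Neurod1, members of these lists, also served to choose the cells.

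The counts of the 60 E9.5 and 15 E10.5 cells without endocrine markers were also summed apart, a choice made after the data were seen. The 60 cells were still a mix, with 18, 14, 12, 11 and 5 of them in clusters 2, 3, 5, 6 and 8. No gene of 14398 passed with edgeR (0%), and 1614 (11.2%) had an unadjusted p under 0.05. The days lay apart in 14.89% of genes upward and 12.96% downward. The counts of the endocrine lists had the opposite direction here, with 8 of 9 tested alpha cell genes positive (median 1.57, 6 above and 0 below). So were 10 of 14 general endocrine genes (median 0.98, 6 above and 1 below), beside a median of 0.09 for all genes. Gcg, Isl1 and Neurod1, members of these lists, were kept low on both days by the choice of the cells. The lists were not counted without them, so no direction of endocrine genes as a whole is read from these counts. Of the 10 early foregut genes 7 were positive, 4 lay above and 2 below. Pdx1 (190, 337 and 255 CPM against 315 and 297 CPM) and Sox9 (441, 593 and 587 CPM against 493 and 608 CPM) overlapped between the days in these cells.

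Sfrp5 kept its direction in these cells, at 780, 232 and 328 CPM against 33.4 and 17.4 CPM (log2 fold change 4.17 ± 0.77, edgeR adjusted p = 0.176). It reached 100 CPM in 44 of 60 E9.5 cells and 2 of 15 E10.5 cells. Rfx6, a factor of gut and endocrine cells, stood at 229, 178 and 152 CPM against 50.3 and 11.2 CPM, in 35 of 60 and 1 of 15 cells. Onecut2, a factor of endoderm organs, stood at 143, 190 and 131 CPM against 24.7 and 27.6 CPM, in 30 and 1 cells. Each of these 3 genes was higher in every E9.5 set than in either E10.5 set, and the edgeR adjusted p was 0.232 for Rfx6 and 0.180 for Onecut2. Krt7, a keratin of simple epithelia that was named after its values were seen, did so too, at 240, 153 and 231 CPM against 47.4 and 39.8 CPM (2.29 ± 0.29, edgeR adjusted p = 0.142).

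Dlk1, an imprinted transmembrane protein related to Notch ligands, was lower at E9.5 in every class. In cells without endocrine markers it stood at 10.4, 136 and 96.5 CPM against 588 and 670 CPM, and at 100 CPM or more in 12 of 60 cells against 14 of 15 (log2 fold change -2.95 ± 0.75, edgeR adjusted p = 0.231). In the Neurog3 class it stood at 10.2, 51.2 and 16.2 CPM against 497 and 380 CPM. In the Gcg class it stood at 22.3, 7.14 and 40.3 CPM against 99.3 and 170 CPM. No E9.5 set reached an E10.5 set in any of the 3 classes. Igf2, an imprinted growth factor, was also lower in the cells without endocrine markers, at 185, 557 and 540 CPM against 893 and 956 CPM.

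**Figure D5:**
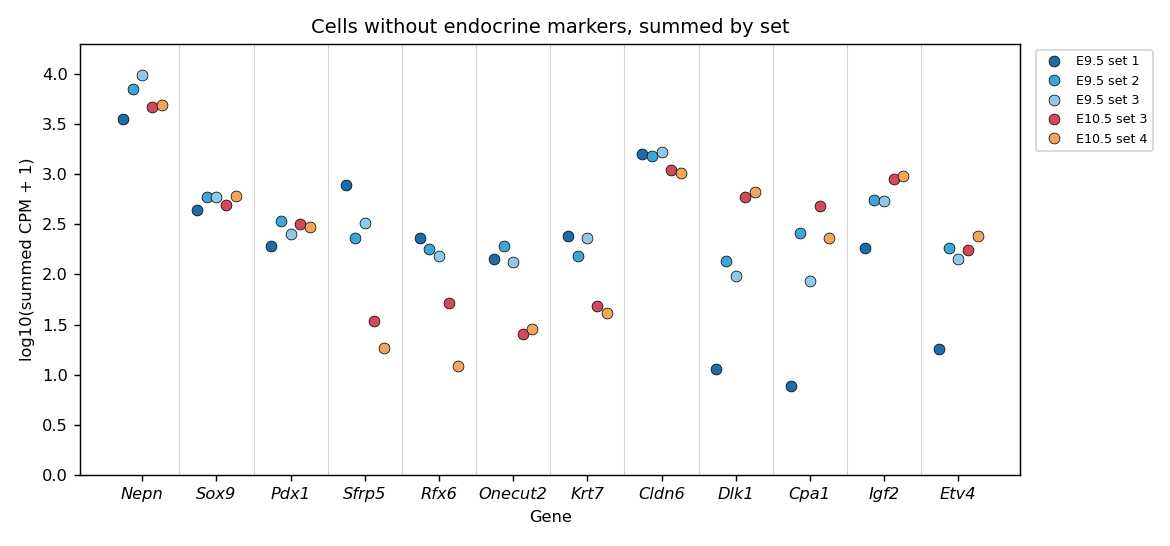
Summed level of 12 genes in cells without endocrine markers, as log10(CPM + 1), 1 point per set. Sfrp5, Rfx6, Onecut2 and Krt7 are higher and Dlk1 and Igf2 lower in all 3 E9.5 sets, while Cpa1 and Etv4 are lowest in set 1 of E9.5.

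Some signalling genes separated set 1 from the other E9.5 sets. Etv4 and Dusp6, genes induced by FGF and ERK signalling, stood in cells without endocrine markers at 17.1, 182 and 142 CPM and at 63.8, 271 and 247 CPM in sets 1, 2 and 3, against 175 and 243 CPM and 316 and 354 CPM at E10.5. Set 1 was lowest in both, and for Etv4 set 2 lay between the E10.5 sets and set 3 below both. Hes1 was at 153, 58.6 and 44.7 CPM against 102 and 129 CPM, here with set 1 high. Of the 18 Wnt pathway genes, 15 had a positive and 3 a negative log2 fold change over all cells (median 0.51), and 6 lay above and 1 below both E10.5 sets, where 13.46% and 13.98% of all genes did. Among them Fzd2, a Wnt receptor, stood at 38.1, 30.3 and 27.9 CPM against 12.2 and 8.89 CPM (1.63 ± 0.40, edgeR adjusted p = 0.476, DESeq2 adjusted p = 0.00761). Of 13 tested Notch pathway genes 7 were positive and 6 negative (median 0.02), with 0 above and 1 below both E10.5 sets. Of 15 tested retinoic acid pathway genes 10 were positive and 5 negative (median 1.04), with 6 above and 2 below.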

How the data were processed

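Read counts of single cells were deposited by the authors as whole numbers; the table lists 40824 genes, and its 92 rows of ERCC spike-ins were left out here. Per the submitters' processing notes, reads were mapped to mm10 and the tools were TopHat2 2.1.0, Bowtie2 and HTSeq 0.6.0; the role of each and the annotation are not given in the sources used here. Of the table's columns 242 (Pdx1-GFP cells) were used and 1953 were not. PCR reads carry no molecular identifiers, so intervals and limits cover counting error only. No doublet caller was run, and no 2 cells held identical counts.

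Cells are not replicates. Each set's cells were added up to 1 profile, so a p-value reflects how sets vary, and that variation may be technical. Genes were tested by the quasi-likelihood F test of edgeR 4.0.16 (TMM scaling, genes kept by filterByExpr, Benjamini-Hochberg adjusted p under 0.05) in 1 fit over all 9 Pdx1-GFP sets, with DESeq2 1.42.0 and limma 3.58.1 as alternatives. Counts were also simulated for 16670 genes, where only some genes above a minimum mean level were changed and the others had the same mean in every set. The edgeR fit called 8.96%, 47.8% and 75.8% of the genes changed by 1, 2 and 3 log2 units. Shares of cells were compared with exact permutation tests. Clusters used scanpy 1.11.5 (2000 variable genes, 20 components, 10 neighbours, Leiden resolution 1.0). Members and lists were chosen with earlier results of these data known. Named genes were to be the 10 most raised and 10 most lowered past the threshold, with sets apart and 50 CPM or more on average, which none met, the 6 markers, members of the lists, and up to 10 leading genes per cluster. A planned contrast of cells high and low in Mnx1 could not be formed. Gene positions are from the GENCODE annotation vM21 of GRCm38 (mm10), matched by gene identifier for 39950 of 40824 genes.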

Additional observations from a re-analysis of the deposited data

How the results depend on the processing

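The count of genes between E9.5 and E10.5 stayed at 0 in edgeR with other size factors, no filter, the 5 sets alone, without cells of 1000 CPM or more of Gcg or with the Pdx1-GFPhigh sets added, and in limma, and was 377 with DESeq2; the cause was not tested. Leaving out a set gave 0 to 5 genes. Among cells without endocrine markers it gave 2 without set 1 and 6 without set 2. No paired analysis was possible because the groups share 1 set number only and the Mnx1 classes could not be formed; no alternative for them was run.

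With the Pdx1-GFPhigh sets added to E10.5, the difference in share turned to -11.2 percentage points for Pdx1, -3.07 for Nepn and -14.6 for Sox9, and was -5.53 for Gcg and -8.33 for Ptf1a. At 1000 CPM the differences for Pdx1 and Ptf1a were 0 because no cell reached it. At 10 CPM Mnx1 differed by -8.97 points. Leaving out a set gave 10.6 to 17.9 points for Pdx1, 19.7 to 26.5 for Nepn, 4.48 to 18.2 for Sox9, -28.7 to -17.6 for Gcg and -7.43 to 2.57 for Ptf1a. Thinning each cell to 150000 counts gave 16.6, 21.99, 9.25, -20.1 and -5.32 points.

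Log2 fold changes turned sign for genes that did not pass. Ptf1a gave -0.42 with limma, -0.39 without those Gcg cells, -0.52 with Pdx1-GFPhigh, and -0.019 and -0.14 without E10.5 set 3 and E9.5 set 3; leaving out a set gave -0.32 (without E9.5 set 2) to 0.60 (without E9.5 set 1). Without those Gcg cells Pdx1 gave -0.22, Gcg 1.38, Neurog3 -0.10 and Isl1 0.065. With Pdx1-GFPhigh Pdx1 gave -0.14, Sox9 -0.25, Gcg 0.035 and Isl1 0.44. Clusters numbered 6 at resolution 0.6 and 8 at 1.4, with 95.1% and 98.4% of cell pairs placed alike. Few sets, 2 against 3, limit every test.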

Other observations

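Ins2, the insulin gene, reached 100 CPM in 18 of 57 cells of set 1 of E9.5 and in 0 cells of sets 2 and 3. The highest cell had 247 CPM. The level in set 1 was 90.0 CPM in cells without endocrine markers, 69.2 CPM in the Neurog3 class and 42.4 CPM in the Gcg class, and from 4.65 to 8.16 CPM in the same classes of sets 2 and 3. In the class with only Isl1 or Neurod1 it was 81.3 CPM in the 2 cells of set 1 and 45.6 CPM in the 1 cell of set 3.

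Ghrl, which encodes ghrelin, stood at 2749 CPM in the Neurog3 class of set 1 and at 6.55 and 7.03 CPM in that class of sets 2 and 3. Over all E9.5 cells 19 reached 100 CPM, of which 18 had Isl1, 9 had Gcg and 8 had Neurog3. The highest single cell had 21614 CPM.

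Genes of the Lin28 axis, which act in early embryonic tissue, differed in direction. Igf2bp3, an RNA-binding protein, was at 161, 163 and 141 CPM in the E9.5 sets and 98.3 and 86.8 CPM in the E10.5 sets (log2 fold change 0.77 ± 0.17, edgeR adjusted p = 0.469, DESeq2 adjusted p = 0.00374). Lin28a was at 91.3, 41.4 and 40.1 CPM against 18.8 and 27.97 CPM. Of the 12 genes of this list 6 were positive and 6 negative, with 5 above and 3 below both E10.5 sets, where 13.46% and 13.98% of all genes did.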
